A study of Caenorhabditis elegans with 10 samples.

Results

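The genes described here are those that start between 2 and 4 Mb on chromosome V of Caenorhabditis elegans, a stretch on the left arm of the chromosome. They were chosen by position alone, but the stretch itself was chosen because many genes within it had read as lower in the Aβ strain in these same libraries. The strain differences of its genes are therefore given as a description, with no test. In all, 499 of the 22554 genes listed in the deposited tables start in this window, 376 of 19177 at 8 h and 482 of 21915 at 24 h, and 359 are listed at both times. Of the 499, 430 are protein-coding and 58 are pseudogenes.

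RNA from whole worms was sequenced in GMC101, in which the unc-54 promoter, a promoter of body wall muscle, drives human Aβ1-42 before the unc-54 3′ end, and in CL2122, the control strain with the unc-54 vector that lacks Aβ. Both strains also carry GFP driven by the intestinal promoter mtl-2, both were kept on NGM plates with OP50 bacteria, and both were moved to 25°C for 8 h or 24 h before collection. The labels give each strain 3 samples for the 24 h point and 2 for the 8 h point, and name the L1 stage, whereas the study's methods describe young adults. The tables hold 1 value per gene, strain and time, so there is no replicate check, every interval below covers counting error only, and each strain is a single line, so Aβ and any other difference between the lines cannot be told apart. The study's own list of genes for the 8 h comparison is titled as a second batch, so batch and time cannot be told apart, and the 2 tables were normalized separately.

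The outer arms of this chromosome are known for large nematode gene families that lie in tandem clusters, among them the G protein-coupled chemoreceptors of sensory neurons, the nuclear hormone receptors (nhr) and the cytochrome P450 enzymes (cyp) that oxidize steroids, fatty acids and foreign compounds. C-type lectin genes (clec), antimicrobial peptide genes and the small pud genes, whose proteins are more abundant in dauer larvae, are found there too. Many members of these families are expressed in the intestine or hypodermis and respond to food, pathogens or stress.

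The depth was 20533034 reads on genes in GMC101 against 22520669 in CL2122 at 8 h, and 25283085 in GMC101 against 24583097 in CL2122 at 24 h. All 17 tissue and stage marker genes checked were listed at both times, from 0.831 to 17539 CPM (reads scaled to a common library total). The yolk protein gene vit-2, made by adult hermaphrodites, had at least 12649 CPM in each of the 4 columns. At 24 h the muscle genes unc-54, myo-3 and unc-15 had log2 fold changes (GMC101 over CL2122) of 1.17, 1.24 and 1.36, and the yolk genes vit-5 and vit-6 of 2.05 and 2.20. At 8 h these 3 muscle genes were at -0.56, 0.18 and -0.11, and the hypodermal collagen genes dpy-7 and rol-6 were at -1.50 and -1.22. The intestinal gene mtl-2 was at -0.71 at 8 h and 1.37 at 24 h, while the other intestinal markers, ges-1 and elt-2, lay between -0.44 and -0.01 over both times. The neuronal genes unc-119, rab-3 and snb-1 lay between -0.10 and 0.06 at 8 h and at -0.72, 0.25 and 0.04 at 24 h. The germ line genes glh-1, pgl-1 and gld-1 lay between -0.22 and 0.05 at 8 h and at 0.53, 0.63 and 0.50 at 24 h. Both transgenes hold unc-54 sequence, so the unc-54 values may include reads from them. In whole worms fewer cells of a type and less RNA per cell cannot be told apart, and the part of these markers in the values of the window was not tested.

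At 8 h, 72 of the 376 listed window genes were called lower in GMC101 (19.1%), against 1.09% of all genes listed at that time, and only 1 was called higher, against 0.464% of all genes. A gene was called where the whole 95% counting interval of its log2 fold change lay past a 2-fold change, below -1 or above 1. At 24 h, 139 of 482 were called lower (28.8%), against 4.35% of all genes, and 7 were called higher, against 3.86%. Of the 359 genes listed at both times, 31 were called lower at both, against 0.232% of all genes, and 0 were called higher at both, against 0.129%. The window thus held 34.4% of the 209 genes called lower in the whole 8 h table, 14.6% of the 953 called lower at 24 h and 72.1% of the 43 called lower at both times. In the rest of chromosome V, 42 of 3759 genes were called lower and 38 higher at 8 h, and 164 of 4538 were called lower and 186 higher at 24 h. Calls of this kind chose the window, so nothing further is read from them.

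The calls depended on the rule. Under edgeR's exact test with a biological coefficient of variation set at 0.2, which compares those libraries and not the conditions, 43 window genes were called lower at 8 h (background 0.579%) and 0 higher (background 0.235%), and 150 were called lower at 24 h (background 4.72%) and 7 higher (background 4.02%). With the coefficient set at 0.4, 3 window genes were called lower at 8 h (background 0.0469%) and 0 higher (background 0.0365%), and 3 were called lower at 24 h (background 0.0365%) and 4 higher (background 0.196%).

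The difference extended to most genes of the window, called or not. At 8 h, 255 window genes reached 10 normalized counts in their higher strain, and their median log2 fold change was -1.15, a level in GMC101 of 0.451 times that in CL2122. The quartiles were -1.65 and -0.73, and 92.2% of the 255 lay below 0, while the median of all 15281 genes over the same minimum was 0.004, with 49.1% below 0. Counting intervals lay wholly below 0 for 212 of these window genes and wholly above 0 for 3, which were cysl-4, clec-207 and C36C5.14. The intervals of 136 genes held -1, a 2-fold lower level, and 51.8% of the window genes lay between -1.5 and -0.5, against 9.75% of all genes. Because a gene can pass the minimum through its higher strain alone, the same median was taken with no minimum, and it was again -1.15. A gene that passes in CL2122 alone can only lie below 0. The numbers of window genes below 0, here and at 24 h, are therefore a description and not read as a result.

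At 24 h the window genes were lower again and more widely spread. The median of the 321 over the minimum was -1.49, or 0.355 times CL2122, and 286 lay below 0 (89.1%), while the median of all 16757 genes was -0.005, with 50.4% below 0. Intervals lay wholly below 0 for 255 genes and wholly above 0 for 23. With no minimum the median was -1.50. Summed over the listed genes, the window gave 6852 CPM in GMC101 and 12828 CPM in CL2122 at 8 h, a ratio of 0.534, and 7208 CPM in GMC101 and 12291 CPM in CL2122 at 24 h, a ratio of 0.586. CPM are scaled to library totals, unlike the medians. In the normalized counts that the medians use, the genes over the minimum summed to ratios of 0.522 at 8 h and 0.670 at 24 h.

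The difference varied with the level of expression more at 24 h than at 8 h. Window genes with 1000 normalized counts or more in their higher strain had a median of -1.01 at 8 h, and all 43 of them lay below 0. Those with 10 to 50 counts had a median of -1.31. The best measured genes at 24 h were the nearest to 0, with a median of -0.83 over 50 genes of at least 1000 counts, against -1.68 over 109 genes of 10 to 50 counts. Over all genes at 24 h the medians by the same limits were 0.12 and -0.19, an order like that of the window. Among the 93 window genes with at least 200 counts at both times, the interquartile range of the log2 fold change was 0.629 at 8 h and 1.22 at 24 h, around medians of -1.01 and -0.73. The 7887 genes of the whole genome by the same limit had ranges of 0.195 and 0.526. Pseudogenes of the window had medians of -1.31 at 8 h (19 genes) and -1.56 at 24 h (22 genes), and its protein-coding genes of -1.14 and -1.46.

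**Figure D1:**
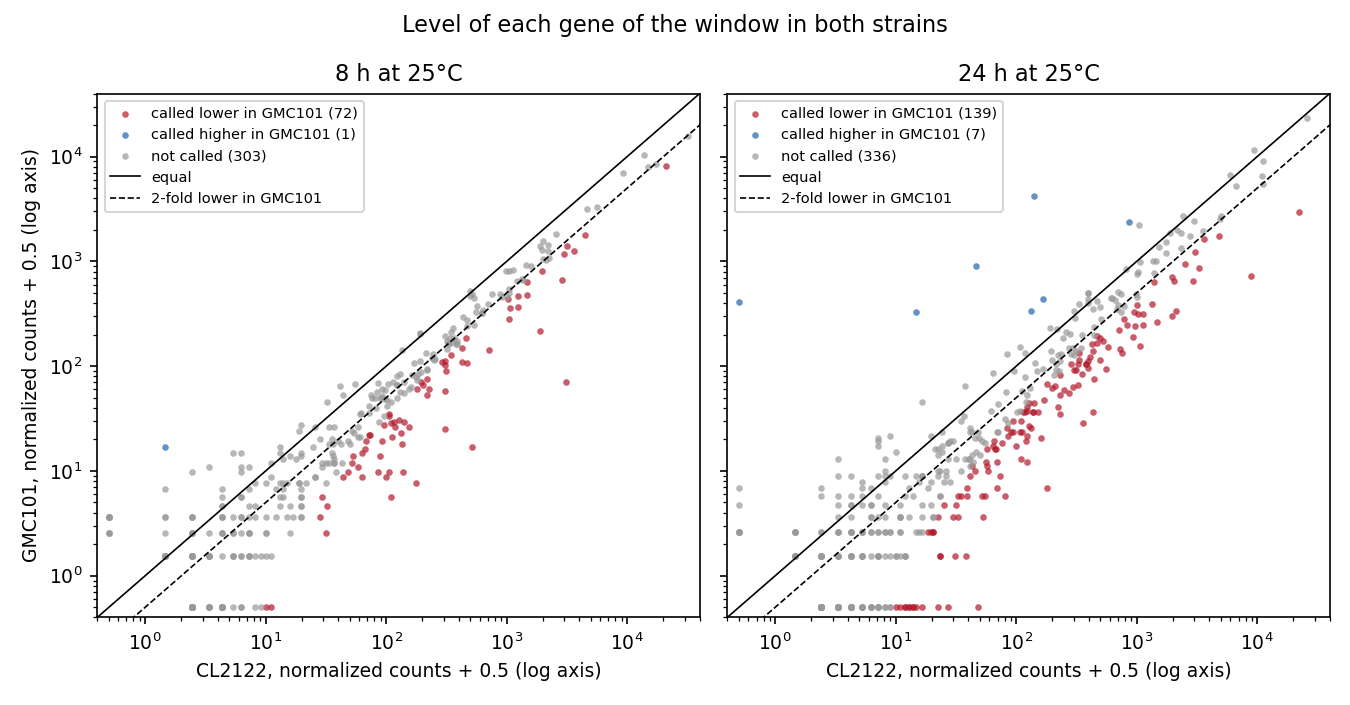
Normalized counts of each window gene in GMC101 (vertical axis) and CL2122 (horizontal axis), both with 0.5 added and on log axes, at 8 h (left) and 24 h (right). At 8 h many points lie near the dashed line of a 2-fold lower level in GMC101, and at 24 h the 139 genes called lower spread further below it while 7 genes called higher lie above the line of equality.

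By position, the low values ran through nearly the whole stretch. In bins of 100 kb by gene start, 19 of the 20 bins had a median log2 fold change below -0.5 at both times. The exception was the first bin, from 2.0 to 2.1 Mb, with medians of 0.08 at 8 h and 0.10 at 24 h. The lowest bin at 8 h was 2.3 to 2.4 Mb, at -3.51, which holds the pud genes, and the lowest at 24 h was 2.9 to 3.0 Mb, at -2.99. The weakest of the 19 at 8 h was 3.7 to 3.8 Mb, at -0.57. Just past the right end, the bin from 4.0 to 4.1 Mb was also low, with medians of -1.12 and -1.20. From there to 5 Mb, and from 1 to 2 Mb, bin medians ran from -0.16 to 0.15 at 8 h and from -0.54 to 0.63 at 24 h.

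Low and near-equal genes were mixed in the first bin. The gene just outside the left end, alh-5, which encodes an aldehyde dehydrogenase, had 168 normalized counts in GMC101 against 154 in CL2122 at 8 h, and 391 in GMC101 against 517 in CL2122 at 24 h, with log2 fold changes of 0.13 and -0.40. The gene just inside, clec-206, had only 4 reads in GMC101 against 0 in CL2122 at 24 h and was not listed at 8 h. Further out to the left, acs-3, starting at 1969528, had log2 fold changes of -1.34 and 0.06. The gene gst-37, starting at 1921621, was called lower at 24 h, at -2.32, but had 2 reads against 1 at 8 h. Between acs-3 and alh-5, T08B1.1 and tnt-4 lay above 0 at both times and T08B1.4 below. Over the 100 kb that hold these outer genes, the medians were 0.13 at 8 h and 0.004 at 24 h. Of the 20 window genes over the minimum with a log2 fold change of 0 or more at 8 h, 11 start before 2.1 Mb. These were cysl-4, comt-4, clec-207, clec-208 and 7 genes known by sequence names. Within the same bin comt-3, starting at 2057537, had log2 fold changes of -3.12 and -2.69, and F36F12.3, starting at 2086279, had -1.40 and -1.37. After these, the zinc finger gene ztf-28, starting at 2090669, had values of -0.08 and -0.45, and the choline kinase gene ckb-4, starting at 2106398, had values of -0.62 and -1.71.

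The right end was less sharp than the window's limit. The gene just inside, K09D9.11, had 44.5 normalized counts in GMC101 against 31.9 in CL2122 at 8 h, and 8.43 in GMC101 against 8.54 in CL2122 at 24 h, with intervals that held 0 at both times. The gene just outside, K09D9.12, starting at 4002327, had 127 in GMC101 against 214 in CL2122 at 8 h, and 175 in GMC101 against 201 in CL2122 at 24 h, a log2 fold change of -0.74 and then -0.20. Further out, irg-2, a gene named for its induction by infection and starting at 4042404, had log2 fold changes of -2.56 and -1.23. The gene Y45G5AL.1, starting at 4144505, still had -0.72 and -0.52, whereas Y45G5AM.7, starting at 4166796, had 0.08 and -0.36, and coh-4, a cohesin subunit gene, had -0.02 and -0.08. Genes beyond the nearest on each side were picked after their values were seen.

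**Figure D2:**
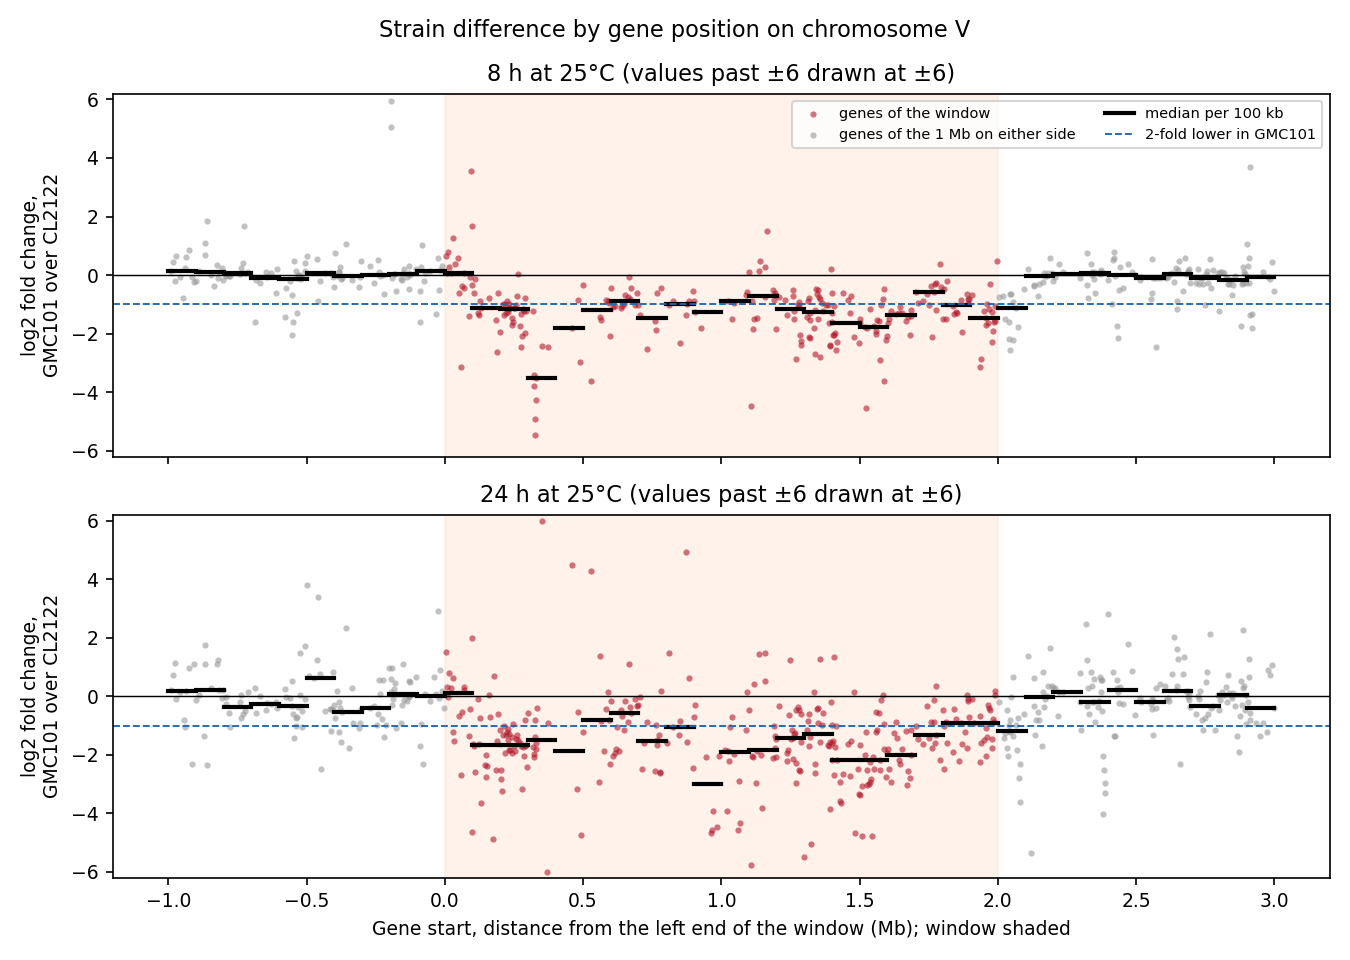
Log2 fold change (GMC101 over CL2122) of every gene over the minimum against the distance of its start from the window's left end in Mb, at 8 h (top) and 24 h (bottom). Red points are window genes, grey points are genes of the 1 Mb on either side, and black bars are medians per 100 kb; 19 of the 20 bars in the shaded window lie below -0.5, as does the first bar to its right.

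No other 2 Mb of the genome had a median as low, but the window was chosen for its low genes in these same libraries. Its rank and its runs of low genes are therefore a description and not a test. Across the 52 windows of 2 Mb that cover the 6 chromosomes, the other 51 had medians from -0.061 to 0.096 at 8 h. At 24 h the other windows ran from -0.77 to 0.157, the lowest being the first 2 Mb of chromosome II and the next the 2 Mb after it, at -0.40. The percentage of genes called lower elsewhere reached at most 3.15% at 8 h, in the window from 4 to 6 Mb of chromosome V, and 20.5% at 24 h, in the first window of chromosome II. At 8 h the longest run of neighboring chromosome V genes over the minimum that all lay below 0 was 64 genes, from Y5H2A.4 to cyp-33C9. The longest such run at 24 h was 43 genes, from cyp-33C2 to irld-32.

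**Figure D3:**
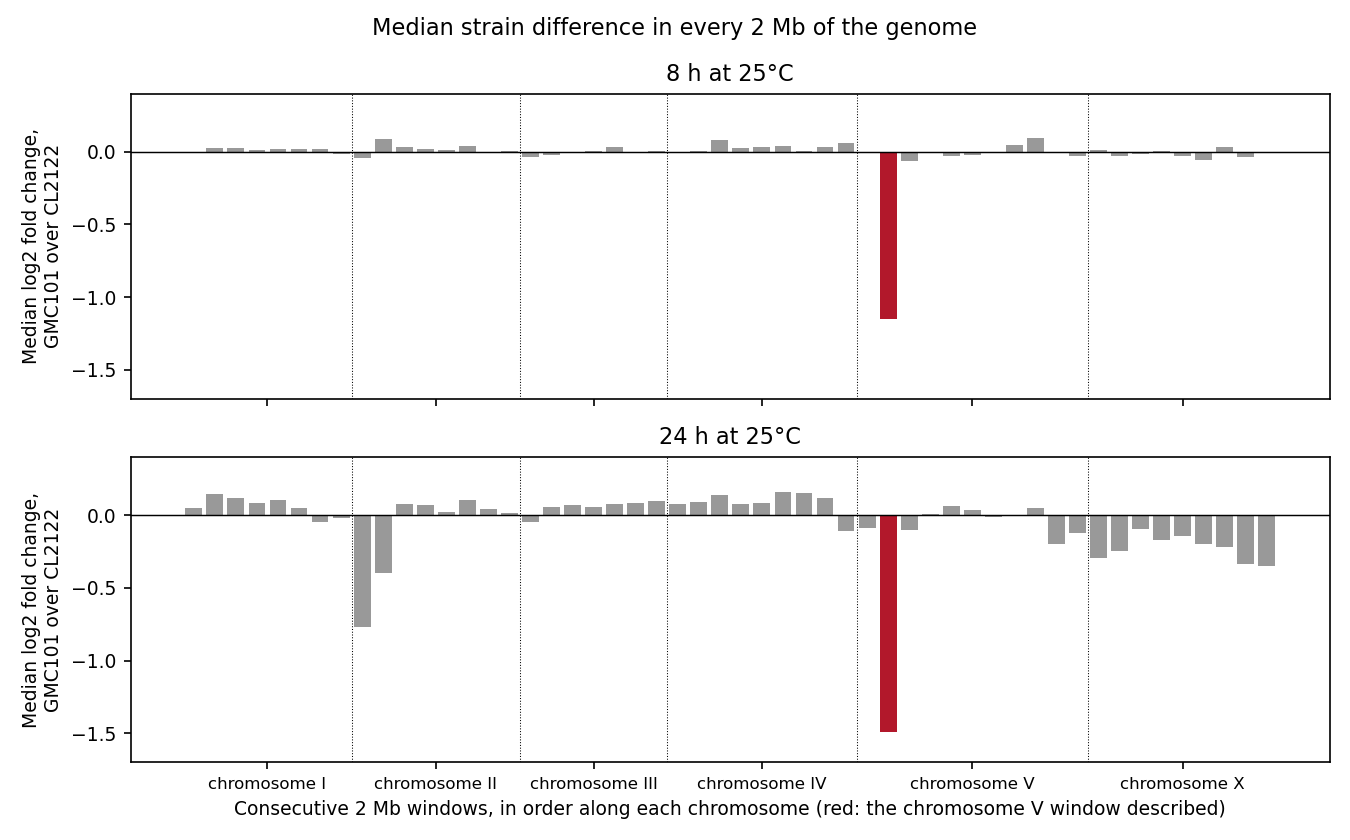
Median log2 fold change (GMC101 over CL2122) of the genes over the minimum in each consecutive 2 Mb of the 6 chromosomes, at 8 h (top) and 24 h (bottom). The red bar is the chromosome V window, at -1.15 and -1.49; grey bars are the other 51 windows, which stay between -0.061 and 0.096 at 8 h and reach -0.77 at the start of chromosome II at 24 h.

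The pud genes were the lowest family of the window at 8 h. The names stand for a protein up-regulated in dauer, the resistant larval form, and all 6 members lie within 10 kb of each other, with none elsewhere in the tables. The best measured was pud-3 (WBGene00017501, chromosome V from 2324510 to 2326827), with 70.4 normalized counts in GMC101 against 3097 in CL2122 at 8 h, a log2 fold change of -5.45 with an interval of -5.83 to -5.11. At 24 h it had 199 in GMC101 against 351 in CL2122, a log2 fold change of -0.82, and was not called. The gene pud-4 (WBGene00017498, from 2326678 to 2327262), which overlaps pud-3 on the other strand, had 16.6 in GMC101 against 518 in CL2122 at 8 h, and 186 in GMC101 against 492 in CL2122 at 24 h. It was called lower at both times, at -4.92 and -1.40.

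The other 4 pud genes had far fewer counts and the same order of strains. At 8 h pud-2.1 had 5.18 in GMC101 against 108 in CL2122, pud-2.2 had 9.32 in GMC101 against 136 in CL2122, pud-1.1 had 8.28 in GMC101 against 99.5 in CL2122, and pud-1.2 had 9.32 in GMC101 against 104 in CL2122. At 24 h they had 10.5 to 15.8 in GMC101 and 42.7 to 67.4 in CL2122. The genes pud-2.1 and pud-2.2 have the same span and length and may share reads, as may pud-1.1 and pud-1.2, whose names mark them as copies. Reads of pud-3 and pud-4 cannot be told apart where the genes overlap, so the 6 values are not separate measurements. All 6 were called lower at 8 h and 4 at 24 h, with medians of -4.03 and -1.71. Without the 6 pud genes the median of the window was -1.14 at 8 h and -1.49 at 24 h.

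Peptide genes at the right end were low at 8 h and mixed at 24 h. The genes nlp-27 to nlp-31 and nlp-34 form a cluster of small secreted peptides of the hypodermis, some of them antimicrobial and induced by fungal infection or wounding. All 6 lay below 0 at 8 h, 4 were called lower, and their median was -1.59, while 62 nlp genes elsewhere had a median of 0.19 and 0 calls of lower. For nlp-29 there were 66.2 normalized counts in GMC101 against 202 in CL2122 at 8 h, and 237 in GMC101 against 440 in CL2122 at 24 h. At 24 h nlp-31, with 712 in GMC101 against 1962 in CL2122, and nlp-34, with 121 in GMC101 against 410 in CL2122, were called lower, whereas nlp-27, with 404 in GMC101 against 396 in CL2122, and nlp-28, with 132 in GMC101 against 117 in CL2122, lay at 0.03 and 0.17, values that turn negative when scaled to total reads, a shift of -0.19. The median of the 6 at 24 h was -0.84, against 0.07 over 65 nlp genes elsewhere. The nlp genes elsewhere were matched by symbol only and need not be peptides of the same kind or tissue. In the 1 Mb to the left of the window, the antimicrobial peptide genes cnc-2, cnc-3 and cnc-4 were also low at 8 h, at -1.60, -2.04 and -0.68. At 24 h these cnc genes were at -0.62, 0.53 and -0.32, so low values at 8 h were not particular to the window's peptide genes. The dpy-7 and rol-6 values above, of hypodermal genes, were low at both times as well, and their part here was not tested.

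Cytochrome P450 genes lay mostly in 2 clusters, and nearly all over the minimum lay below 0. Of 21 in the window, 17 were over the minimum at 8 h, all 17 below 0, with a median of -1.46 and 7 called lower, against a median of -0.21 and 0 called lower among 37 elsewhere. Some of the 17 passed the minimum in CL2122 alone, such as cyp-33C2, with 8.28 normalized counts in GMC101 against 25.1 in CL2122 at 8 h. The sign of such genes was fixed in advance, so the number of cyp genes below 0 is not read as a result. At 24 h the median was -1.40 over 19 genes, 17 of them below 0 and 8 called lower, against 0.0073 over 51 genes elsewhere, of which 4 were called lower. Those 51 include cyp-35A3 and cyp-35A4, just past the right end of the window, at -1.41 and -0.48. In the cluster near 2.2 Mb, cyp-33C3 (WBGene00018262, from 2242778 to 2244871) had 111 normalized counts in GMC101 against 305 in CL2122 at 8 h, and 161 in GMC101 against 426 in CL2122 at 24 h. In the cluster near 3.95 Mb, cyp-35A5, of a subfamily induced by xenobiotics, had 9.32 in GMC101 against 85.0 in CL2122 at 8 h, and 26.3 in GMC101 against 126 in CL2122 at 24 h. These were the 2 cyp genes called lower at both times. Further along that cluster, cyp-34A8 had 473 in GMC101 against 1468 in CL2122 at 8 h, but 349 in GMC101 against 433 in CL2122 at 24 h, a log2 fold change of -1.63 and then -0.31. Between cyp-35A5 and cyp-34A8, cyp-34A4 and cyp-34A6 were called lower at 24 h, at -1.49 and -2.04. There cyp-34A5 and cyp-34A7 were at -1.08 and -1.40 at 24 h and not called.

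The 3 UDP-glucuronosyltransferase genes (ugt), whose products conjugate sugars to foreign and endogenous compounds, lay below 0 at both times. At 8 h ugt-53 had 143 normalized counts in GMC101 against 713 in CL2122, and ugt-32 had 54.9 in GMC101 against 140 in CL2122. The third, ugt-64 (WBGene00015577, from 3503130 to 3506352), had 1262 in GMC101 against 3602 in CL2122 at 8 h, and 647 in GMC101 against 2040 in CL2122 at 24 h, and was the only ugt gene of the window called lower at both times. The ugt medians were -1.51 at 8 h and -0.85 at 24 h, against -0.13 and -0.11 over the ugt genes elsewhere that were over the minimum.

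Nuclear hormone receptor genes, ligand-regulated transcription factors that are greatly multiplied in nematodes, had similar differences at 8 h. Of the 33 in the window, 25 were over the minimum at 8 h, 24 of them below 0, with a median of -1.13 but only 1 called lower, nhr-115, with 29.0 normalized counts in GMC101 against 116 in CL2122. Elsewhere the 8 h median was -0.01 over 167 nhr genes, and 1 of the 205 listed was called lower. At 24 h all 28 window genes over the minimum lay below 0, the median was -1.48 and 15 were called lower, against a median of -0.41 and 8 called lower among 178 elsewhere. Of those 178, 144 lay below 0 as well. A gene can pass the minimum in CL2122 alone, so the number of nhr genes below 0 is not read as a result. Among the 19 nhr genes that start from 2.1 to 2.3 Mb, the best counted of those called lower at 24 h was nhr-228, with 144 in GMC101 against 321 in CL2122 at 8 h, and 248 in GMC101 against 832 in CL2122 at 24 h. Near the left end, nhr-86, a receptor with a role in the response to pathogens, had the smaller log2 fold changes of -0.38 and -0.55.

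All 5 arrestin domain genes (arrd) of the window were below 0 at both times, with medians of -1.45 and -1.66 and 3 called lower at each time. Elsewhere the arrd medians were 0.02 at 8 h and -0.30 at 24 h, with 0 and 2 called lower. The gene arrd-22 had 109 normalized counts in GMC101 against 425 in CL2122 at 8 h, and 90.6 in GMC101 against 299 in CL2122 at 24 h. The ground-like gene grl-27, of a nematode family of secreted proteins, had 17.6 in GMC101 against 135 in CL2122 at 8 h, and 23.2 in GMC101 against 106 in CL2122 at 24 h. Both genes were called lower at both times.

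Chemoreceptor genes were the most numerous group of the window, but most had too few reads to be called. Of 117 such genes by symbol (str, srj and the sr families but srab), 48 were listed at 8 h, 37 of them below 0 and 11 above, and only 4 were over the minimum. At 24 h, 108 were listed, 97 of them below 0 and 11 above, with a median of -2.26, and 23 were called lower. Summed over the 108 genes there were 337 reads in GMC101 against 1914 in CL2122. Of the 43 over the minimum at 24 h, all passed it in CL2122 and only 9 in GMC101, so the sign of these 43 is not read as a result. The same families elsewhere were low at 24 h as well, with a median of -0.79 over the 841 genes listed, 579 of them below 0 and 34 called lower. The gene str-68 had 0 reads in GMC101 against 11 in CL2122 at 8 h, and 0 in GMC101 against 28 in CL2122 at 24 h, at least 3.42-fold and 8.41-fold lower in GMC101. The best counted receptor was srj-9 (from 3432259 to 3433658), with 28.4 normalized counts in GMC101 against 360 in CL2122 at 24 h, a log2 fold change of -3.64. Next to it T20D4.19, a gene known only by its sequence name, had 35.8 in GMC101 against 432 in CL2122 at 24 h. At 8 h these neighbors had at most 9 reads in either strain. The receptor pseudogene srt-72, which was not listed at 8 h, had 5.27 in GMC101 against 80.7 in CL2122 at 24 h.

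**Figure D4:**
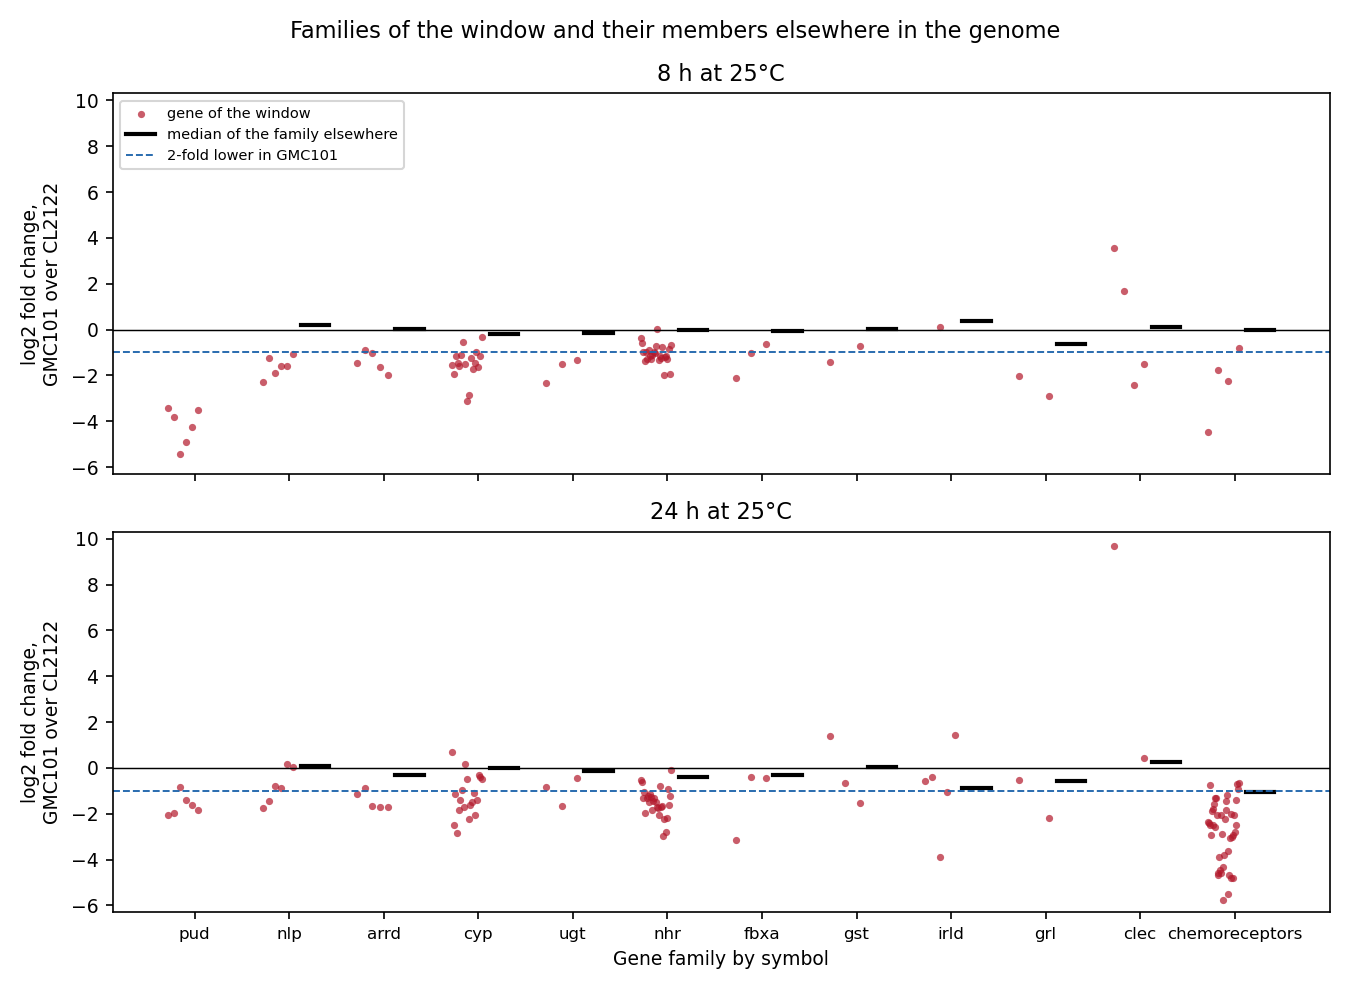
Log2 fold change (GMC101 over CL2122) of the window genes over the minimum in each family (red points, by position within a family) and the median of the same family elsewhere in the genome (black bars), at 8 h (top) and 24 h (bottom). Pud genes are the lowest at 8 h, nhr and cyp genes lie near the dashed line of a 2-fold lower level, and the chemoreceptor genes shown at 24 h all passed the minimum in CL2122, whereas 11 of the 108 listed, under the minimum and not drawn, lay above 0; the clec point at 9.68 is clec-209, whose CL2122 library had 0 reads, so that its height depends on the added 0.5.

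Among the 31 genes called lower at both times, the only one whose counting interval lay wholly past a 4-fold lower level at both times was comt-3 (WBGene00021487, from 2057537 to 2061129), a gene of the catechol-O-methyltransferase family. It had 218 normalized counts in GMC101 against 1908 in CL2122 at 8 h, and 303 in GMC101 against 1961 in CL2122 at 24 h. Its log2 fold changes were -3.12 (interval -3.34 to -2.92) and -2.69 (interval -2.88 to -2.51), and it lies in the first bin, whose median was near 0. Set against the window's own median in place of 0, comt-3 was the only gene called lower at both times. It overlaps the end of nhr-86, whose reads it could share.

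The gene with the most reads among those called lower at both times was unc-132 (WBGene00021078, from 3687110 to 3701864), known by an uncoordinated mutant. It had 1408 normalized counts in GMC101 against 3184 in CL2122 at 8 h, and 1638 in GMC101 against 3649 in CL2122 at 24 h, so that its log2 fold changes, -1.18 and -1.16, were nearly the same. R08F11.1, annotated as a non-lysosomal glucosylceramidase, an enzyme of sphingolipid breakdown, had 639 in GMC101 against 1462 in CL2122 at 8 h, and 1227 in GMC101 against 3069 in CL2122 at 24 h. In both of these genes the strain difference stayed a little over 2-fold.

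Several other genes had a larger difference at 24 h. F59B1.8 had 186 normalized counts in GMC101 against 461 in CL2122 at 8 h, and 651 in GMC101 against 2921 in CL2122 at 24 h, with log2 fold changes of -1.30 and -2.16. T24A6.20 had 369 in GMC101 against 1230 in CL2122 at 8 h, and 261 in GMC101 against 1479 in CL2122 at 24 h, with log2 fold changes of -1.74 and -2.50. For both genes the counting intervals of the 2 times did not overlap, but the difference between the times was not tested. T20D4.11 had 101 in GMC101 against 307 in CL2122 at 8 h, and 247 in GMC101 against 1121 in CL2122 at 24 h. W08A12.2 and W08A12.3 overlap each other, so their reads cannot be told apart there, and their log2 fold changes at 8 h were -1.39 and -2.03, against -2.01 and -2.78 at 24 h. T28A11.19 had 8.28 in GMC101 against 62.8 in CL2122 at 8 h, and 189 in GMC101 against 924 in CL2122 at 24 h, log2 fold changes of -2.85 and -2.29. Its counting interval at 8 h held the 24 h value, so no order of the times is read from it. No role is given here for these genes, which are known by sequence names.

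Of all genes listed at both times, 0.232% were called lower at both. By 0.5 Mb of the window, 8 of the 97 genes listed at both times were called lower at both from 2 to 2.5 Mb, 0 of 53 from 2.5 to 3 Mb, 10 of 109 from 3 to 3.5 Mb and 13 of 100 from 3.5 to 4 Mb. The stretch without any such gene had low bin medians at both times, and it held 3 of the 5 genes called in opposite directions at 8 h and 24 h, gst-10, folt-2 and Y45G12C.16.

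Some genes were much lower at 8 h than at 24 h. The gene irg-1 (WBGene00015574, from 3523587 to 3524575), which is induced by Pseudomonas infection, had 7.25 normalized counts in GMC101 against 178 in CL2122 at 8 h, a log2 fold change of -4.52. At 24 h it had 147 in GMC101 against 346 in CL2122, a log2 fold change of -1.23, and was not called. The irg genes elsewhere, 4 over the minimum at each time, had medians of -0.67 at 8 h and 0.23 at 24 h. They include irg-2, just past the right end of the window, at -2.56 and -1.23. The lysozyme gene lys-7, an antibacterial effector singled out after its values were seen, had 665 in GMC101 against 2882 in CL2122 at 8 h, and 2722 in GMC101 against 2438 in CL2122 at 24 h, with log2 fold changes of -2.12 and 0.16. Scaled to total reads in place of edgeR's TMM factors, which lowers 24 h values by about 0.19 where counts are not low, lys-7 lay just below 0 at 24 h. Of the 359 window genes listed at both times, 36 were called lower at 8 h and not called at 24 h, against 0.804% of all genes listed at both times.

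Of the same 359 genes, 88 were called lower at 24 h and not called at 8 h (24.5%), against 3.88% of all genes listed at both times. F22F7.7 (WBGene00017724, from 2131476 to 2140042), annotated as a gamma-glutamylcyclotransferase, an enzyme of glutathione turnover, had 460 normalized counts in GMC101 against 1011 in CL2122 at 8 h, a log2 fold change of -1.14. At 24 h it had 721 in GMC101 against 8921 in CL2122, a log2 fold change of -3.63 with an interval of -3.74 to -3.52. C01B4.7, which overlaps the transporter gene mct-2, had 3 reads in GMC101 against 4 in CL2122 at 8 h, but 6 in GMC101 against 190 in CL2122 at 24 h. T20D4.15 had 10 reads in GMC101 against 60 in CL2122 at 8 h and was called lower then too, and with 3 reads in GMC101 against 55 in CL2122 at 24 h it was at least 16.5-fold lower in GMC101.

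Among genes singled out after their values were seen, the Wnt receptor gene cfz-2 had 67.3 normalized counts in GMC101 against 103 in CL2122 at 8 h, and 336 in GMC101 against 2138 in CL2122 at 24 h. The Notch ligand gene lag-2 had 19.7 in GMC101 against 28.0 in CL2122 at 8 h, and 52.7 in GMC101 against 231 in CL2122 at 24 h. Both were called lower at 24 h and not at 8 h. The window's other Notch ligand gene, apx-1, was not called at either time, with 3299 in GMC101 against 5599 in CL2122 at 8 h, and 5270 in GMC101 against 6692 in CL2122 at 24 h. T22F3.11, the window gene with the most normalized counts among those called lower at 24 h, had 17.6 in GMC101 against 41.5 in CL2122 at 8 h, and 2928 in GMC101 against 22120 in CL2122 at 24 h. Its CL2122 level was 1.91 CPM at 8 h and 948 CPM at 24 h, the tables being scaled separately.

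Of the 359 genes, 5 were called lower at 8 h and higher at 24 h, against 0.0539% of all genes listed at both times (10 genes), and 0 were called the other way round, against 0.0378% (7 genes). The most abundant was folt-2 (WBGene00018138, from 2872465 to 2875600), which encodes a transporter of the folate carrier family. It had 8047 normalized counts in GMC101 against 20810 in CL2122 at 8 h, a log2 fold change of -1.37 with an interval of -1.41 to -1.33. At 24 h it had 4239 in GMC101 against 140 in CL2122, a log2 fold change of 4.91 with an interval of 4.68 to 5.16. In CPM, GMC101 was at 379 at 8 h and 159 at 24 h, and CL2122 at 956 and 6.02, so the CL2122 column had by far the larger change between the tables. The glutathione S-transferase gene gst-10, of a family that detoxifies lipid peroxidation products, had 462 in GMC101 against 1245 in CL2122 at 8 h, and 434 in GMC101 against 165 in CL2122 at 24 h.

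The other 3 opposite genes were clec-209, F56A4.2 and Y45G12C.16. The C-type lectin gene clec-209 (WBGene00021224, from 2351676 to 2352932) had 56.9 normalized counts in GMC101 against 309 in CL2122 at 8 h. At 24 h it had 389 reads in GMC101 against 0 in CL2122, which is at least 144-fold higher when set against 3 reads. F56A4.2 (WBGene00018910, from 2459637 to 2460893), also a C-type lectin gene, had 90.1 in GMC101 against 315 in CL2122 at 8 h, and 327 in GMC101 against 14.2 in CL2122 at 24 h. These lectin genes lie on the same strand, have the same span and an exon length of 891 bases, and start 107961 bases apart.

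Such a pair may share reads, and the 2 values are uncertain as separate measurements. A second pair of equal length, Y19D10A.11 and F56A4.12, also starts 107961 bases apart. At 24 h Y19D10A.11 had 0 reads in GMC101 against 50 in CL2122, and F56A4.12 had 5 in GMC101 against 54 in CL2122, so these neighbors of the lectins were lower in GMC101. Y45G12C.16 (WBGene00044131, from 2530146 to 2531174) had 24.8 normalized counts in GMC101 against 309 in CL2122 at 8 h, and 900 in GMC101 against 45.6 in CL2122 at 24 h. It matches C13B7.6 in span and length, 108279 bases away, which had at most 4 reads in any column. No protein or gene sequence was used here, so how alike these copies are was not examined.

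The remaining genes called higher at 24 h were F54E2.1 and T20D4.7. F54E2.1 (WBGene00018823, from 2810398 to 2812017) had 1031 normalized counts in GMC101 against 2108 in CL2122 at 8 h, a log2 fold change of -1.03 that was not called, and 2380 in GMC101 against 859 in CL2122 at 24 h, a log2 fold change of 1.47. T20D4.7 had 39.3 in GMC101 against 82.1 in CL2122 at 8 h, and 338 in GMC101 against 132 in CL2122 at 24 h. It lies near T20D4.11, which was lower at both times. The single gene called higher at 8 h was clec-207, near the left end, with 16 reads in GMC101 against 1 in CL2122, and it had 0 in GMC101 against 2 in CL2122 at 24 h. Beside it clec-208 had 10 reads in GMC101 against 3 in CL2122 at 8 h, and 6 in GMC101 against 0 in CL2122 at 24 h. The lectin gene clec-210 had 33.1 normalized counts in GMC101 against 95.6 in CL2122 at 8 h, and 85.3 in GMC101 against 63.6 in CL2122 at 24 h, with an interval that held 0.

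The 6 genes with the most reads among those not called at either time all lay below 0 at 8 h. The ribosomal protein gene rpl-11.1 had 35496 normalized counts in GMC101 against 62454 in CL2122 at 8 h, and 44434 in GMC101 against 43247 in CL2122 at 24 h. The glycogen phosphorylase gene pygl-1, whose product releases glucose from glycogen, had 15811 in GMC101 against 31763 in CL2122 at 8 h, and 23382 in GMC101 against 25764 in CL2122 at 24 h. For nuo-5, a subunit of mitochondrial complex I, there were 8496 in GMC101 against 17403 in CL2122 at 8 h, and 9009 in GMC101 against 11082 in CL2122 at 24 h. Counting intervals are narrow at these depths, and at 8 h the intervals of pygl-1 (-1.03 to -0.98) and nuo-5 (-1.07 to -0.997) sat at the 2-fold level.

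At 24 h these 3 genes had log2 fold changes of 0.04, -0.14 and -0.30. The lipid droplet gene ldp-1 had 7988 normalized counts in GMC101 against 14800 in CL2122 at 8 h, and 6558 in GMC101 against 10879 in CL2122 at 24 h, with log2 fold changes of -0.89 and -0.73. The fatty acid binding protein gene lbp-9, at the left end, had 10284 in GMC101 against 13854 in CL2122 at 8 h, and 11657 in GMC101 against 9349 in CL2122 at 24 h. The muscle gene ketn-1, which encodes kettin, had 6900 in GMC101 against 9309 in CL2122 at 8 h, and 6664 in GMC101 against 5942 in CL2122 at 24 h. Of these 6 genes, rpl-11.1, lbp-9 and ketn-1 lay above 0 at 24 h, of which rpl-11.1 and ketn-1 lay below 0 when scaled to total reads. The body wall muscle genes above, outside the window, were at -0.56 to 0.18 at 8 h and 1.17 to 1.36 at 24 h.

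Between the times, the log2 fold changes of the window genes were related but far from equal. Over 236 genes over the minimum at both times, Spearman's rho was 0.36, against 0.17 over 2579 genes in the rest of chromosome V and 0.18 over 11854 genes on the other chromosomes. It was as high, 0.37, over the 124 such genes in the 1 Mb to the right of the window, and 0.15 over the 108 in the 1 Mb to its left. The 1 Mb to the right holds the low genes from 4.0 to 4.1 Mb, whose part in its value was not tested. With 100 kb taken off each end, rho over the window genes was 0.27. The 2 tables share no library, genes are not replicates, and the strains share their backgrounds across times, so rho is given as a description. Of the 236 genes, 198 lay below 0 at both times (83.9%), against 25.7% of all genes over the minimum at both times. Genes that passed the minimum in CL2122 alone could only lie below 0, so this share is a description too.

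**Figure D5:**
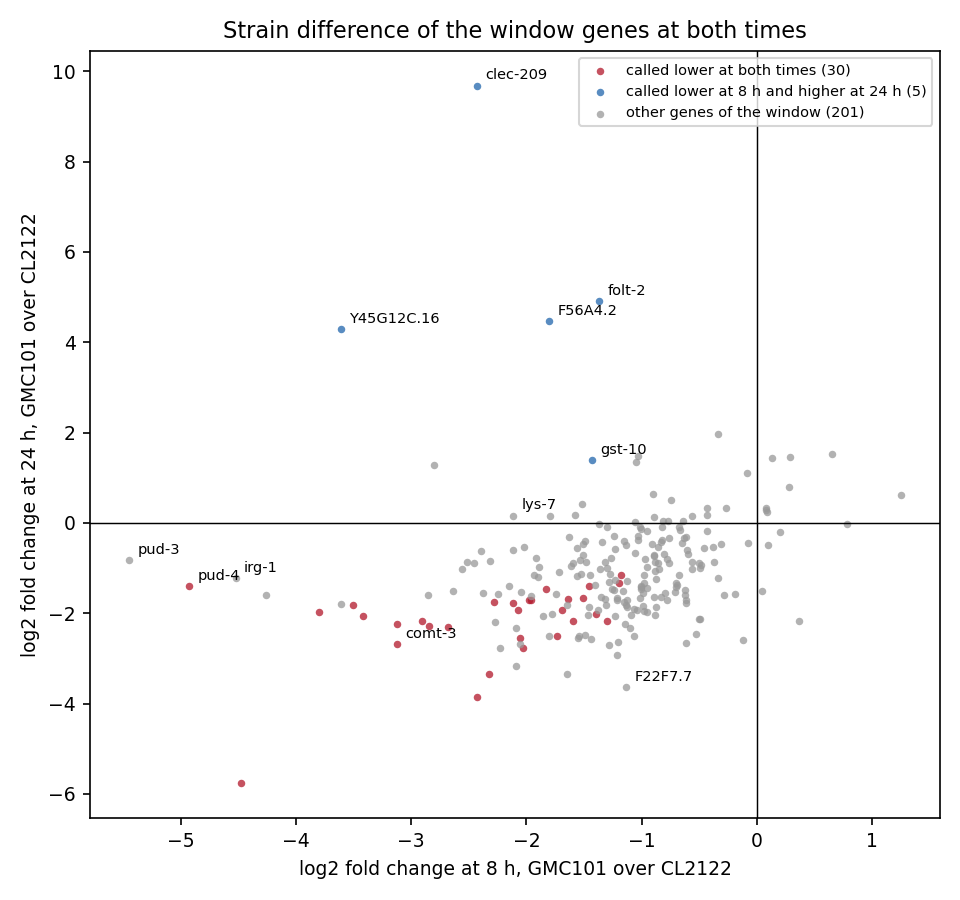
Log2 fold change (GMC101 over CL2122) at 24 h against that at 8 h for the 236 window genes over the minimum at both times. Most points lie in the lower left part, below 0 at both times; red points were called lower at both times and blue points are the 5 genes called lower at 8 h and higher at 24 h, among them clec-209, whose 24 h value has 0 reads in CL2122.

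Set against the window's own median in place of 0, fewer genes were called at 8 h. Only 11 genes were then called more than 2-fold lower at 8 h, the 6 pud genes, irg-1, Y45G12C.16, comt-3, grl-27 and cyp-35A5, and 7 more than 2-fold higher. At 24 h the counts were 13 lower, among them F22F7.7, C01B4.7, srj-9, T20D4.19, T22F3.11 and cfz-2, and 46 higher, among them rpl-11.1, pygl-1, nuo-5, lbp-9 and ketn-1. This reference level was chosen after the data were seen, and no share over all genes is given for it.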

How the data were processed

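Whole-worm RNA of GMC101 and CL2122 was sequenced at 8 h and 24 h. The authors deposited 1 table per time with 1 signal value for every gene in each strain, which is a read count scaled to a common library size, so the 10 labeled samples cannot be compared as replicates. The submitters' processing notes name HISAT2 2.05, StringTie 1.33 and DESeq2. The genome build and annotation are not given in the sources used here, and how samples were combined is not stated. The kit does not mark strand, so overlapping genes cannot be told apart. The log2 and p-value columns deposited beside them hold the authors' own comparison and were not used, and 0 other value columns were left out.

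Dividing each deposited signal by its smallest step returned whole read counts for at least 99.986% of values within 0.1 read. Log2 fold changes used TMM factors (edgeR 4.0.16, R 4.3.3) and 0.5 added normalized counts, and understate the change of low genes. The TMM factors were 1.01 for GMC101 and 0.988 for CL2122 at 8 h, and 0.936 for GMC101 and 1.07 for CL2122 at 24 h. Counting intervals were exact Clopper-Pearson intervals (95%) of GMC101's share of the reads of a gene, and folds against 3 reads or fewer are bounds against 3 reads. Medians are over genes with 10 or more normalized counts in their higher strain. A test fitted to replicates could not be run. The alternatives were edgeR's exact test with assumed coefficients of 0.1, 0.2 and 0.4, fixed fold rules, other scalings (totals, DESeq2 1.42.0 size factors), pseudocounts of 1 and 5, other minimums, protein-coding genes only and a shortened window. The scripts were tested on simulated data.

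Families were taken from the gene symbol before the hyphen. The genes named are those called the same way at both times (the 12 with the most reads), all called in opposite directions, the 6 largest changes per time and direction with at least 50 normalized counts, all pud and clec genes, the genes at both ends and the 6 most abundant without a call. Others were chosen after their values were seen. The window, its genes and the lists were chosen with earlier results of these data known. Positions are those of the tables, and 498 of the 499 genes overlap their position in the Ensembl annotation of WBcel235. In all, 48 window genes overlap another listed gene. Python 3.11.15, numpy 2.4.6, pandas 2.3.3, scipy 1.17.1 and matplotlib 3.10.9 were used.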

Additional observations from a re-analysis of the deposited data

Results flagged for a closer look

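For 8 genes of the window the counting intervals lay wholly on opposite sides of 0 at the 2 times and the gene was called at 1 time or more. Other genes, such as lbp-9, changed side without a call at either time. The difference between the times was not tested, since each strain has 1 value per time, and time and batch cannot be told apart. On the log2 scale, the 24 h value minus the 8 h value was 9.60 for clec-209, with the 24 h value taken as a bound against 3 reads, 7.90 for Y45G12C.16 and 6.27 for F56A4.2. It was 6.28 for folt-2, 2.82 for gst-10, 2.50 for F54E2.1 and 2.41 for T20D4.7, and 2.28 for lys-7, whose 24 h value of 0.16 was close to equality and turned negative when scaled to total reads.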

How the results depend on the processing

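No paired analysis was possible because the tables hold no replicate columns, and for the same reason no replicate could be left out. Of 100 alternative values of the counts, medians and correlation, 73 stayed near the reported value and 27 moved. The 73 include settings under which the 0 genes called higher at both times remained 0. Counts cannot change sign, so only the medians and the correlation could reverse, and 0 of them did. The medians of the window stayed between -1.21 and -1.04 at 8 h and between -1.69 and -1.35 at 24 h. The counts of genes called lower, 72 at 8 h, 139 at 24 h and 31 at both times, moved with the assumed spread of edgeR's exact test: a coefficient of 0.4 left 3 at 8 h, 3 at 24 h and 0 at both times, 0.2 gave 43 at 8 h and 20 at both times, and 0.1 gave 115 at 8 h and 69 at both times. A 4-fold threshold left 13, 29 and 1. A plain 2-fold change with at least 50 normalized counts gave 59 at both times, and at least 10 in both strains gave 20. Against the window's own median (added after the data were seen), 11, 13 and 1 were lower and 7, 46 and 3 higher. No share over all genes is given for the coefficient of 0.1, the fold thresholds, the minimum in both strains or the window's median. The same holds for the counts of edgeR's exact test at both times. These counts therefore do not show how the window compares with the genome under those rules. The 1 gene called higher at 8 h became 0 with coefficients of 0.2 and 0.4, the 4-fold threshold, at least 50 counts, at least 10 in both strains, or 100 kb taken off each end. The 7 called higher at 24 h became 4 with a coefficient of 0.4 or the 4-fold threshold. Without a minimum, Spearman's rho was 0.20 in place of 0.36. Of 84 values of named genes, DESeq2 size factors moved 0, a pseudocount of 5 moved 1 and scaling to totals moved 15, with 2 changing sign, rpl-11.1 and ketn-1 at 24 h, neither called. The 24 h median of the window's chemoreceptors was -2.50 over 43 genes with the minimum, -2.26 over 108 without it and -2.22 over 9 with at least 10 counts in both strains, the last 2 added after the data were seen. Genes with few reads, among them most chemoreceptors, could not be called at this depth, and an interval that holds 0 does not show equal levels. The cause of these shifts was not tested.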
